A study of Mus musculus with 20 samples.

Results

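In mouse bone marrow-derived macrophages, 121 of the 24342 gene symbols measured were lower with the DOT1L inhibitor SGC0946 whether the cells were left unstimulated, given LPS or given the LXR agonist GW3965. They were chosen from these same libraries. A gene was kept when its mean level in unstimulated DMSO cells was 2 CPM or more (read counts scaled to a common library size with TMM factors) and when, in each of the 3 conditions, the highest SGC0946 library was below the lowest DMSO library and the difference of mean log2(CPM + 0.5) was -0.25 or less. Of the 10496 symbols that reached 2 CPM, 1.15% met the rule. The differences between SGC0946 and DMSO given below therefore chose the genes, and they are descriptions. The mirrored rule, for genes higher with SGC0946 throughout, found 140. Of the 121 symbols, 23 belong to the protocadherin gamma cluster and share exons, so the set holds 99 separate loci.

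DOT1L is a histone methyltransferase that marks the bodies of transcribed genes, and SGC0946 occupies its cofactor pocket. Macrophages make cholesterol through the mevalonate pathway, whose genes are switched on together by the transcription factor SREBP2 when membrane sterol is low, while the receptor LXR, which GW3965 activates, drives cholesterol export and fatty acid synthesis. LPS, a component of the bacterial cell wall, signals through TLR4 and remakes macrophage gene expression within hours. Granule proteins such as lactoferrin are typical of neutrophils and their precursors, which arise from the same marrow progenitors as macrophages.

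Marrow of C57BL/6 mice was cultured for 7 to 8 days with M-CSF supplied by 15% L929-conditioned medium, and 1 µM SGC0946 or its solvent DMSO was present during differentiation. Cells then stayed unstimulated (4 libraries per arm), were given LPS (10 ng/mL, 3 h) or GW3965 (2 µM, 17 h), with 3 libraries per arm each. The 20 libraries came from 4 mice, numbered alike in every group, and mouse 4 is present in unstimulated cells alone. All groups thus share the strain, the culture and the medium, and no group was grown without DMSO or inhibitor. RNA came from whole cultures. In such bulk samples, fewer cells of a type and less RNA per cell cannot be told apart. The word reanalyzed stands in the titles of replicates 1 to 3 of both the DMSO and the DMSO+GW3965 group, so under GW3965 it and the DMSO arm cannot be told apart. No title of an LPS or SGC0946 library has it. In unstimulated cells it thus lies on 3 of the 4 DMSO libraries and on no SGC0946 library, so there it and the arm are only partly separable.

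Depth was 8174951 to 13331945 counts per library in the gene table (median 10399198). Macrophage markers were abundant in every group: the summed level of 12 of them was 19191 to 20792 CPM with DMSO and 16919 to 21013 CPM with SGC0946 without stimulus, so the ranges overlap. The receptor gene Csf1r stood at 2109 ± 70.3 CPM in DMSO cells (SD, n = 4). Dot1l itself, whose product the compound inhibits, is not a member. It measured 58.5 ± 3.86 CPM with DMSO and 51.8 ± 9.64 CPM with SGC0946. The median log2 fold change of 15 genes of the DOT1L complex and its elongation partners was 0.01 in unstimulated cells, 0.01 after LPS and -0.05 under GW3965.

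Most members differed by under 2-fold: 15 were at least 2-fold lower with an adjusted p under 0.05 in unstimulated cells, 13 after LPS and 13 under GW3965. The median log2 fold change over the 121 was -0.53 in unstimulated cells, -0.55 after LPS and -0.48 under GW3965, where that of all 12013 genes tested was -0.0045, -0.0045 and 0.00076. Fold changes are log2 values from edgeR with 1 standard error (SE), and a call needed an adjusted p (Benjamini-Hochberg, all genes tested) under 0.05. In unstimulated cells 113 of the 121 were called lower, beside 4.18% of all genes (4.55% were called higher). After LPS it was 80, beside 3.26% (3.86% higher), and under GW3965 it was 64, beside 1.4% (2.24% higher). With the mouse as a block the counts were 119 in unstimulated cells, 104 after LPS and 97 under GW3965. Because the rule used these contrasts, nothing is read from the shares. Single libraries moved these counts: without SGC0946 replicate 4 the unstimulated count was 72, without replicate 2 of DMSO+LPS or of SGC0946+LPS the LPS count was 49 or 51, and without DMSO+GW3965 replicate 2, DMSO+GW3965 replicate 3 or SGC0946+GW3965 replicate 2 the GW3965 count was 38, 40 and 40. Of the 10496 genes of 2 CPM or more, the highest SGC0946 library was below the lowest DMSO library for 9.47% in unstimulated cells, 12.9% after LPS and 11.3% under GW3965.

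The threshold of -0.25 had genes close to it on both sides. Among members, Mfap3l, Lancl2, Rpa1, Hmox1 and Tmed8 lay nearest to it, with weakest differences of -0.258, -0.260, -0.264, -0.265 and -0.265. Among the genes that met every other part of the rule, Mctp1 (-0.248), Cd180 (-0.246), Pacsin2 (-0.245) and Mvb12b (-0.245) were among those just outside. In all, 145 genes met every part of the rule but the size. A threshold of -0.5 would have kept 51 of the members. Most of the protocadherin gamma symbols, which share exons, are among them, so they stand for far fewer separate loci.

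**Figure D1:**
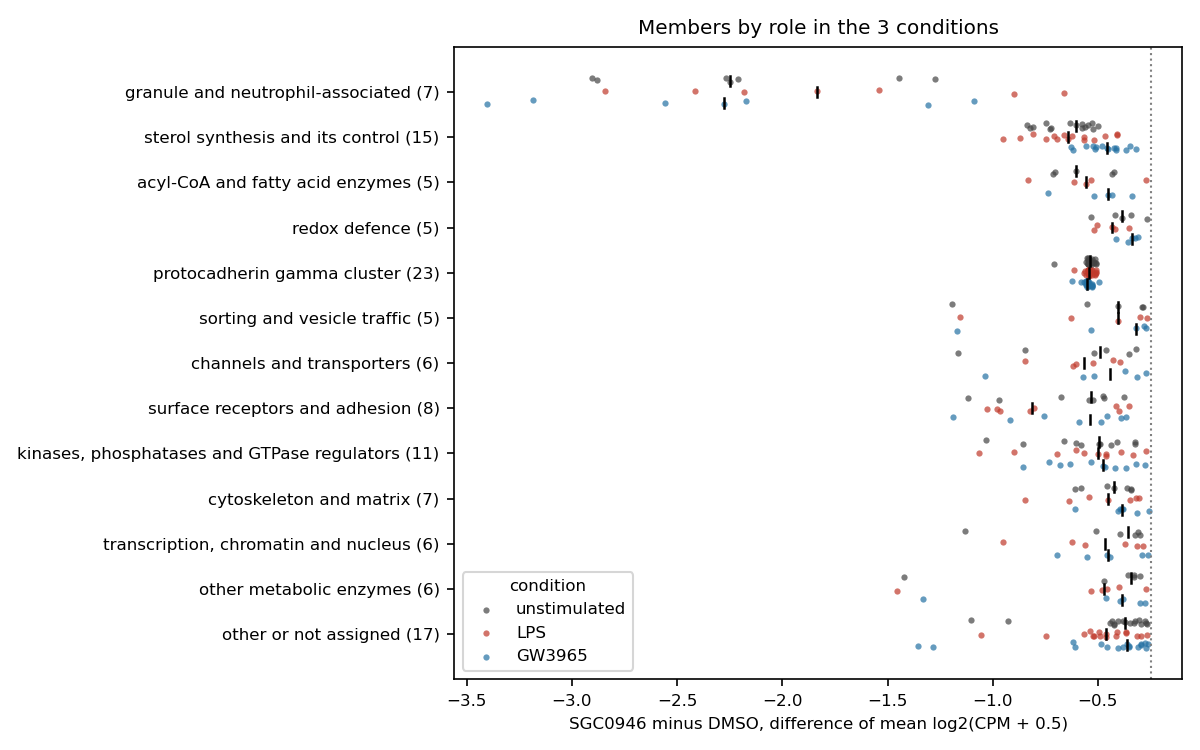
Each point is a member in 1 condition. The x axis is the difference of mean log2(CPM + 0.5), SGC0946 minus DMSO, black ticks are role medians, the dotted line is the threshold of the rule and numbers in brackets count the members of a role. The median of the 7 granule and neutrophil-associated genes lies furthest left in all 3 conditions, and most other members lie between -1 and the threshold.

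The 7 granule and neutrophil-associated genes differed most. Their median log2 fold change was -2.64 in unstimulated cells, -2.05 after LPS and -2.88 under GW3965. Ngp, which encodes a granule protein of neutrophils, stood at 7.04, 9.81, 8.12 and 10.5 CPM in DMSO replicates 1 to 4 and at 0.434, 0.670, 0.541 and 1.71 CPM in the SGC0946 replicates. The lowest DMSO library was far above the highest SGC0946 library, and replicate 4 was the highest of the SGC0946 libraries. After LPS, Ngp was at 11, 12.5 and 11.6 CPM with DMSO and 0.976, 1.68 and 1.02 CPM with SGC0946. Under GW3965 it was at 6.23, 8.63 and 7.18 and 0.0856, 0.690 and 0.403 CPM. The value of SGC0946+GW3965 replicate 1 rests on 1 count. The log2 fold changes were -3.33 ± 0.27, -3.22 ± 0.34 and -4.18 ± 0.39 in unstimulated, LPS and GW3965 cells.

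Ltf encodes lactoferrin, the iron-binding protein of secondary granules. In unstimulated cells it measured 6.37, 6.96, 7.08 and 7.95 CPM with DMSO and 0.608, 0.819, 1.08 and 2.28 CPM with SGC0946. Under GW3965 the DMSO libraries held 5.42, 6.32 and 8.44 CPM and the SGC0946 libraries 0.171, 0.259 and 0.101 CPM, which are 2, 3 and 1 counts. Its log2 fold change there, -5.13 ± 0.47, was the most negative of any member in any condition. S100a9 and S100a8 encode the subunits of calprotectin. S100a9 was at 10.4, 10.6, 14.6 and 11.8 CPM with DMSO and 0.521, 1.42, 0.812 and 2.28 CPM with SGC0946, and S100a8 at 4.36, 7.16, 5.57 and 6.90 and 0.347, 1.42, 0.992 and 0.997 CPM. The DMSO and SGC0946 libraries lay far apart for both. Lcn2 encodes a lipocalin that binds bacterial siderophores. It was at 2.18, 3.11, 3.66 and 3.67 CPM with DMSO and 0.174, 0.298, 0.180 and 0.356 CPM with SGC0946, the latter being 2, 4, 2 and 5 counts per library. After LPS both arms rose, to 16.9, 17.8 and 18.9 and 8.90, 13.6 and 11.3 CPM.

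Chil3, which encodes a secreted chitinase-like protein, had a mean of 5.73 ± 0.668 CPM with DMSO and 1.81 ± 0.463 CPM with SGC0946 (SD, n = 4 each), and its log2 fold changes were -1.64, -1.68 and -1.24. Padi4 encodes an enzyme that converts histone arginine to citrulline. It measured 11.4 ± 1.63 and 4.42 ± 0.778 CPM, with log2 fold changes of -1.35, -0.98 and -1.43.

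Promoters of this group were poor in CpG and 4 of the 7 held a C/EBP motif. Promoter windows were taken from RefSeq on GRCm38.p6, 250 bases before to 50 after the annotated start, and CpG dinucleotides in the 300 bases numbered 2 to 8 in these 7 (median 3), against a median of 22 over 8509 promoters of genes of 2 CPM or more. The motif TTGCNNAA, read on both strands, was in 57.1% of these 7 promoters and in 7.92% of all. The stretches of 80 bases that hold it in these 4 are printed to show where it lies, on the strand of the gene, with the motif in capitals. That of Ngp lies at chr9:110419728-110419807 on the plus strand and ends 1 base before the start, that of Ltf at chr9:111019181-111019260 (plus), that of S100a9 at chr3:90695892-90695971 (minus) and that of Lcn2 at chr2:32387910-32387989 (minus). In Ltf the motif overlaps a reversed CCAAT box, ATTGG.
Ngp: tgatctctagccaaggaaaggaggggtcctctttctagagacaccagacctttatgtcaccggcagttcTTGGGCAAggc
Ltf: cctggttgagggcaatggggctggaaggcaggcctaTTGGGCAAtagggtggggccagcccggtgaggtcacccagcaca
S100a9: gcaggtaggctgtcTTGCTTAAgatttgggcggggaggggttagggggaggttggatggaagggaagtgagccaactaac
Lcn2: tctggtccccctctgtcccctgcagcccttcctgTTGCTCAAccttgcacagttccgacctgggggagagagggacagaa
A match is a run of letters and was not tested as a binding site.

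**Figure D2:**
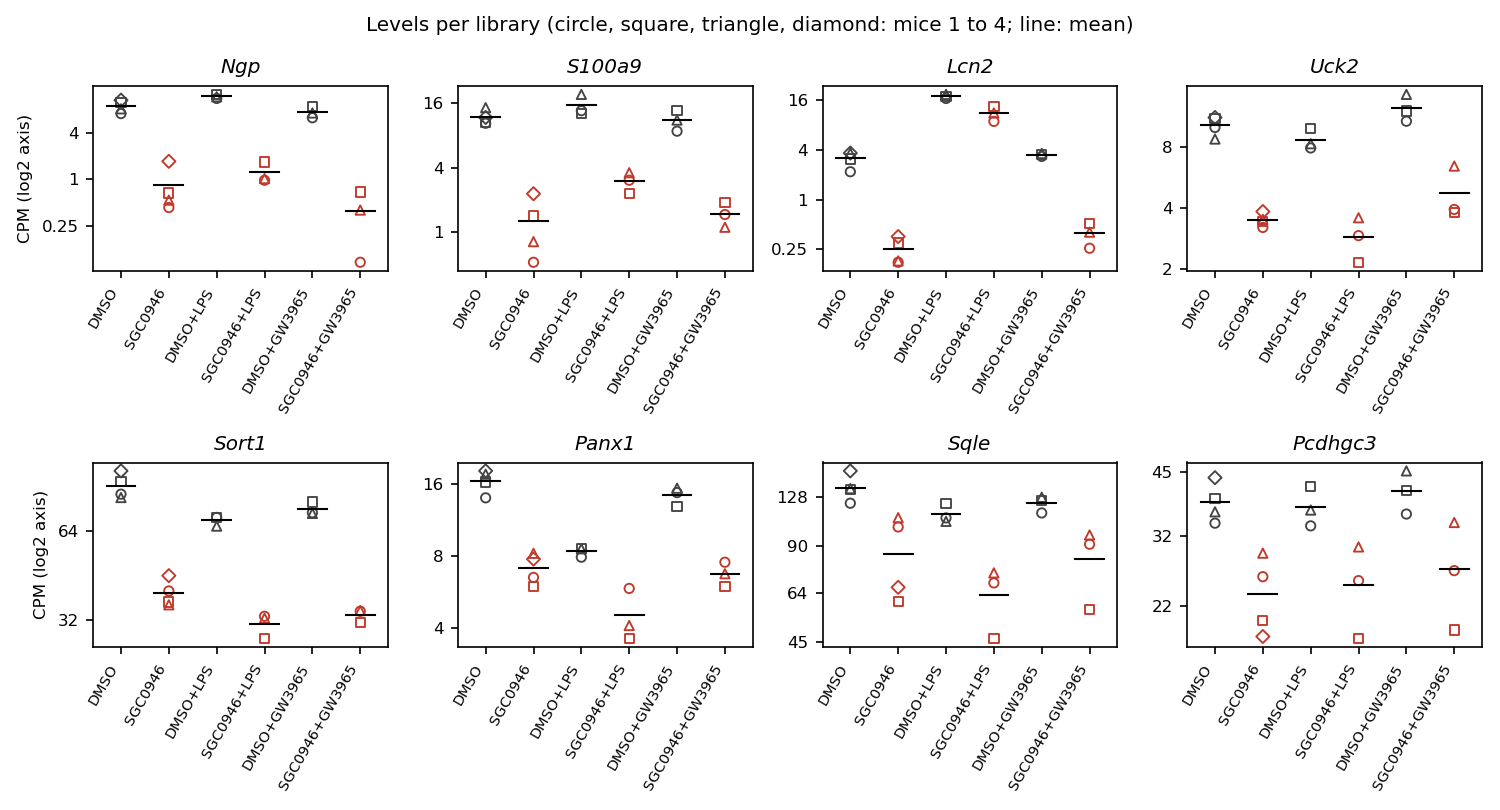
CPM on a log2 axis for 8 members in the 6 groups, 1 symbol per library with the mouse given by its shape, DMSO arms in grey and SGC0946 arms in red, and a line at the mean. Every red point lies below every grey point of its condition, as the rule demands; Lcn2 is far higher after LPS in both arms, and the points for Sqle and Pcdhgc3 spread more among SGC0946 libraries than those for Sort1.

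Of 22 neutrophil and granulocyte precursor genes, 9 passed the filter on low counts, and 6 of the 9 were called lower in unstimulated cells, the 6 being members. Of the other 3, the collagenase gene Mmp8 had a log2 fold change of -0.08 ± 0.09 and the receptor gene Csf3r of -0.06 ± 0.14, and neither passed the test. Mmp9 stood at -0.35 ± 0.18 in unstimulated cells, which did not pass, and fell by 0.84 ± 0.22 under GW3965 (edgeR adjusted p = 0.0393). The 13 not tested averaged 0.532 CPM or less in unstimulated DMSO cells: Ly6g averaged 0.128 CPM in DMSO and 0 in SGC0946 cells, Elane 0.147 and 0.0178 CPM, Mpo 0.257 and 0 CPM, and Cebpe, the transcription factor of granule genes, 0.361 and 0.530 CPM. The summed level of all 22 was 141 to 159 CPM with DMSO and 85.7 to 116 CPM with SGC0946, 247 to 284 and 171 to 219 CPM after LPS, and 108 to 127 and 57.9 to 78.9 CPM under GW3965. The sums did not overlap between arms in any condition. They include the 6 members, which the rule chose for lying lower without overlap, so this is no independent evidence. Sums over other lists moved the other way: the 10 dendritic cell genes summed to 55.2 to 57.1 CPM with DMSO and 88 to 116.8 CPM with SGC0946 in unstimulated cells, with 3 of 7 tested called higher, the 7 B cell genes to 13.3 to 15.5 and 18.3 to 21 CPM, and the 9 T and NK cell genes to 8.47 to 12.8 and 13.9 to 18.8 CPM, each with 1 of 2 tested called higher, Cd22 and Cd4. The other T and NK cell gene tested, Lck, had a log2 fold change of -1.37 ± 0.58 at under 1 CPM and did not pass, which put the median of that pair at -0.32. Of the mast cell, megakaryocyte and stromal lists 1, 3 and 1 genes could be tested, with median log2 fold changes of 0.66, -0.13 and 0.79, and no erythroid gene passed the filter. The part of other cell types in the members' differences was not tested.

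The 8 surface receptor and adhesion genes had a median log2 fold change of -0.53 in unstimulated cells, -0.81 after LPS and -0.54 under GW3965. Megf9, a membrane protein with EGF-like domains, was at 8.47, 10.7, 11.1 and 14.5 CPM with DMSO and 5.82, 5.81, 4.87 and 5.06 CPM with SGC0946, and at 5.73, 6.49 and 7.05 and 4.02, 2.16 and 2.73 CPM after LPS. The arms did not overlap in either condition, as the rule demands. Its log2 fold changes were -1.05, -1.10 and -0.95 in unstimulated, LPS and GW3965 cells. On the list of 7 monocyte genes 2 were called lower in each condition, among them Plac8 (-3.49 ± 0.72 in unstimulated cells), which lay under 2 CPM. The summed monocyte list was 93.6 to 109 CPM with DMSO and 43.7 to 98.8 CPM with SGC0946, overlapping. Lrp5, a Wnt co-receptor, measured 40.5 ± 0.836 and 25.3 ± 2.82 CPM in unstimulated cells, and Htr2b, a serotonin receptor whose exons overlap those of Psmd1, 28.9 ± 2.49 and 19.9 ± 1.38 CPM. Stab1, the scavenger receptor stabilin, was at 797, 766, 742 and 862 CPM with DMSO and 536, 598, 449 and 601 CPM with SGC0946. App, the amyloid precursor gene, was at 820.0 ± 28.7 and 632 ± 24.4 CPM. Ptgir, the prostacyclin receptor, had log2 fold changes of -0.48, -0.40 and -0.48 and Ninj1, which takes part in plasma membrane rupture, -0.47, -0.40 and -0.37.

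The 15 members of sterol synthesis and its control covered the pathway from its regulators to its last steps. Their median log2 fold change was -0.60 in unstimulated cells, -0.61 after LPS and -0.45 under GW3965, and 15, 10 and 2 of the 15 were called lower. Srebf2, the gene of SREBP2, was at 227, 223, 224 and 241 CPM with DMSO and 175, 133, 174 and 141 CPM with SGC0946. Replicates 2 and 4 of SGC0946 were the lowest. Insig1, whose product retains the SREBP complex in the endoplasmic reticulum, was at 125, 151, 145 and 173 and 104, 66.9, 100.1 and 68.4 CPM. In both genes the SGC0946 libraries of mice 1 and 3 lay close together and those of mice 2 and 4 lay lower.

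The enzymes followed the same layout. Hmgcs1, which encodes a synthase early in the mevalonate pathway, measured 239, 325, 297 and 329.7 CPM with DMSO and 224, 166, 230.1 and 154 CPM with SGC0946, so that DMSO replicate 1 and SGC0946 replicates 1 and 3 almost met. Mvd makes isopentenyl diphosphate, and its log2 fold changes were -0.73, -0.96 and -0.41. Sqle, the epoxidase that oxidises squalene, was at 123, 135, 136 and 155 and 103, 60.1, 110.3 and 66.8 CPM. Lss, which closes the ring to lanosterol, was at 66.6, 74, 68 and 83.2 and 57, 32.9, 49.7 and 31.2 CPM. SGC0946 replicates 2 and 4 were again the lowest in all of these. In the later steps, Cyp51, Msmo1, Nsdhl and Sc5d had log2 fold changes of -0.71, -0.56, -0.53 and -0.57 in unstimulated cells. Hmgcs1 overlaps an antisense gene over 12.1% of its exon length, so its count is uncertain. Por, the reductase that supplies electrons to Cyp51 and Sqle, was at 358 ± 5.53 and 254 ± 20.9 CPM, and Stard4, a carrier of free cholesterol, at 118 ± 11 and 83.3 ± 17 CPM.

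The same layout held after LPS and under GW3965, where mouse 4 was not measured. After LPS, Srebf2 was at 361, 365 and 366 CPM with DMSO and 297, 267 and 258 CPM with SGC0946, and Lss at 37.4, 43.6 and 40.2 and 32.4, 13 and 28 CPM. Under GW3965, Srebf2 was at 196, 193 and 196 and 151, 132 and 178 CPM, and Lss at 70.4, 72.7 and 74.2 and 64.1, 32.4 and 62.5 CPM. Over the 15 sterol members, the SGC0946 library of mouse 2 was the lowest of its arm in 14 after LPS, Srebf2 being the exception, and in 15 under GW3965. Of the 15 sterol members, Insig1 and Por were the 2 called lower under GW3965, at -0.55 ± 0.15 and -0.40 ± 0.08, and the other 13 had values from -0.58 to -0.31.

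Of the 10 sterol members with a promoter sequence, 9 held a CCAAT box (90%), which reads ATTGG on the other strand, against 39.0% of the 8509 promoters. All 10 held the GC box GGGCGG, as did 66.9% of all. The sterol response element, searched as TCACNCCAC, was in 1 of them, Hmgcs1, and in 1.06% of all promoters. Stretches of 80 bases with the CCAAT box in capitals are given for 5 of them, as a motif found in 9 of the 10 against 39.0% of all promoters: Lss at chr10:76531506-76531585 (plus strand), Mvd at chr8:122443423-122443502 (minus), Insig1 at chr5:28071162-28071241 (plus), Cyp51 at chr5:4104698-4104777 (minus) and Hmgcs1 at chr13:119690269-119690348 (plus).
Lss: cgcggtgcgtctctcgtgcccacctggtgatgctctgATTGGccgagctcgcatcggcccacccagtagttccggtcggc
Mvd: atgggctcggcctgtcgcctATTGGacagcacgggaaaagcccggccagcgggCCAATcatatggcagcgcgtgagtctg
Insig1: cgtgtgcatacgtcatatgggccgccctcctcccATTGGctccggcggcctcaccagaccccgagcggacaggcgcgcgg
Cyp51: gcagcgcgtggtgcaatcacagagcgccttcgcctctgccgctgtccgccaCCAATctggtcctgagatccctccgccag
Hmgcs1: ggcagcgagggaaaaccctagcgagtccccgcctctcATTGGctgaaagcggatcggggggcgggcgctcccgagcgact
Mvd carries the box on both strands within the stretch. Absence of the response element says only that those letters are not in this window.

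Of 27 genes on the list of sterol synthesis and SREBP2, 26 were tested and 18 were called lower in unstimulated cells, 9 after LPS and 2 under GW3965, with none higher. The list's median log2 fold change was -0.56, -0.58 and -0.40. The list was written with results of these libraries known, and is not independent evidence of direction. It holds 14 of the members. Genes of the same pathway outside the rule included Hsd17b7 (-0.92 ± 0.27 in unstimulated cells), Fdps (-0.72 ± 0.21) and Mvk (-0.60 ± 0.17), each called lower there. Others did not pass: the value was -0.04 ± 0.08 for Fdft1, the squalene synthase gene, -0.09 ± 0.06 for Scap, the SREBP escort, and 0.08 ± 0.09 for Insig2.

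Library by library, the roles among the members were ordered differently across mice. For each role, the median over its members of log2(CPM + 0.5) minus the DMSO mean of the condition was computed per library. For the sterol members it was -0.35, -0.86, -0.39 and -0.91 in SGC0946 replicates 1 to 4, -0.40, -1.04 and -0.50 in SGC0946+LPS replicates 1 to 3 and -0.30, -0.75 and -0.29 in SGC0946+GW3965 replicates 1 to 3. Mouse 2 was lowest in every condition it shared with mice 1 and 3, and mouse 4, measured only without stimulus, was beside it. For the granule group the values were -2.77, -2.17, -2.26 and -2.07, then -1.92, -1.60 and -1.93, then -2.48, -1.97 and -2.77. There the library of mouse 2 was the least reduced after LPS and under GW3965. In unstimulated cells, the SGC0946 libraries of mice 2 and 4 were both lower than those of mice 1 and 3 in 15 of 15 sterol members, 23 of 23 protocadherin gamma symbols and 4 of 5 redox members, and in 0 of 7 granule members, of which 6 had both higher. Over the 98 members outside the protocadherin cluster it was 57 lower and 12 higher. DMSO libraries lay between -0.14 and 0.16 for the sterol members. The mice were singled out after these values were seen. Without mice 2 and 4, 41 members were called lower in unstimulated cells, where 113 were with all libraries.

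**Figure D3:**
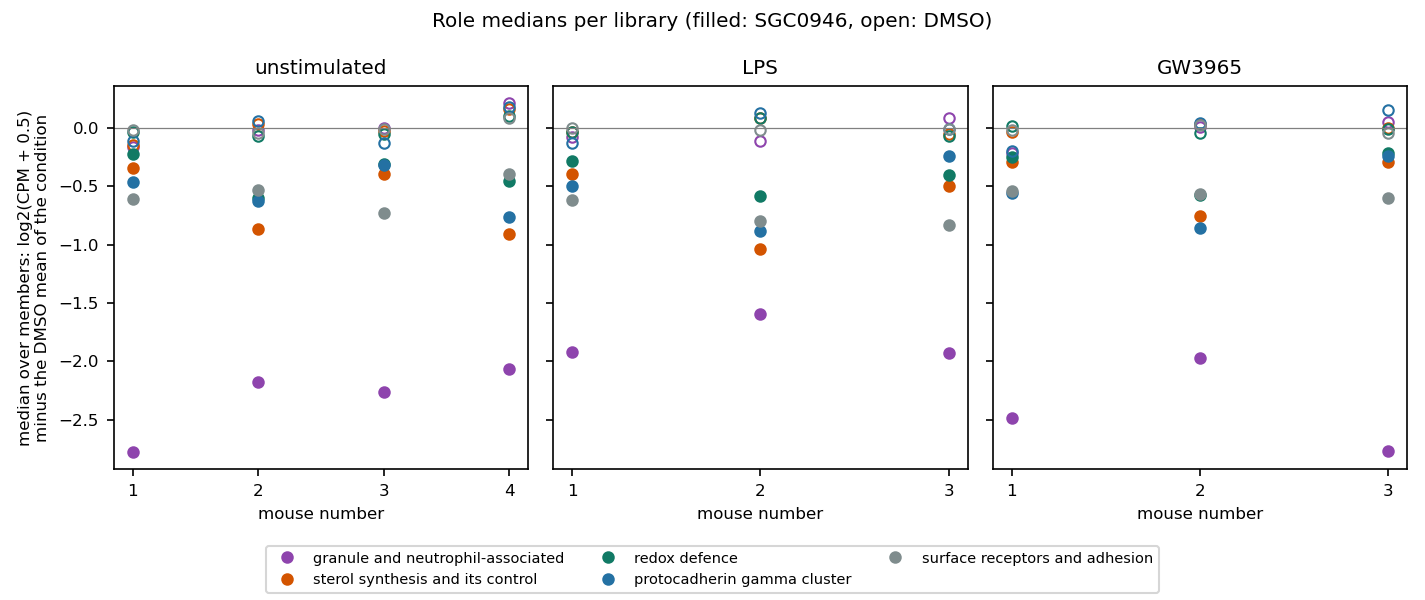
Median over the members of a role of log2(CPM + 0.5) minus the DMSO mean of the condition (y axis), by mouse number (x axis) and condition, with SGC0946 libraries filled and DMSO libraries open. Sterol, redox and protocadherin medians of SGC0946 libraries are deepest in mice 2 and 4, whereas granule medians are deepest in mice 1 and 3.

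Of the 5 members that handle acyl-CoA and fatty acids, 4 were lowered more in mice 2 and 4 than in mice 1 and 3 in unstimulated cells, the exception being Acot7. Acsl3, which activates long-chain fatty acids on lipid droplets, was at 61.6, 71.2, 69.8 and 71.6 CPM with DMSO and 49.6, 33.8, 51.3 and 34.4 CPM with SGC0946. Aacs, which activates acetoacetate for lipid synthesis, was at 71.8, 84.1, 79.3 and 88.9 and 63.6, 38.2, 58.3 and 41.8 CPM. Hsd17b12, of fatty acid elongation, was at 99.9, 113, 108 and 121 and 95.1, 66.1, 94.3 and 74.7 CPM. In these 3 genes SGC0946 replicates 2 and 4 were the lowest libraries. Acss2, which makes acetyl-CoA from acetate, had SGC0946 libraries closer together, at 15.7, 18.6, 17.8 and 19.3 and 13, 13, 14.3 and 12.5 CPM. Acot7, a thioesterase, had log2 fold changes of -0.61, -0.53 and -0.75, and Hsd17b12 had -0.43, -0.27 and -0.33. On the list of 23 fatty acid synthesis genes, 21 were tested and 6, 2 and 2 were called lower in unstimulated, LPS and GW3965 cells. Acss2 and Acsl3 are the members on it. Fasn, the fatty acid synthase, had a log2 fold change of -0.60 ± 0.23 in unstimulated cells and did not pass.

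Redox defence was represented by Prdx1, Gclm, Srxn1, Mgst3 and Hmox1, with a median log2 fold change of -0.38 in unstimulated cells, -0.43 after LPS and -0.33 under GW3965. Prdx1, an abundant peroxiredoxin, was at 399, 432, 408 and 455 CPM with DMSO and 339, 278, 341 and 309 CPM with SGC0946. Gclm, the modifier subunit of the enzyme that starts glutathione synthesis, was at 32.5, 30.9, 29 and 40.0 and 28.5, 25, 23.9 and 26.3 CPM, with DMSO replicate 4 above the others. Hmox1, the heme oxygenase, was at 330.0, 322, 338 and 362 and 290.0, 274, 291 and 269.5 CPM without stimulus and at 153, 136 and 132 and 102, 93.5 and 102 CPM after LPS. Its weakest difference was near the threshold of the rule. Srxn1 and Mgst3 had unstimulated log2 fold changes of -0.38 ± 0.10 and -0.53 ± 0.15.

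The antioxidant response element, searched as TGACNNNGC on both strands, was in 3 of the 4 redox promoters (75%), in 28.0% of the 82 members with a promoter sequence and in 15.0% of all. It was not particular to the redox members. It was also in 3 of 5 acyl-CoA and fatty acid promoters (60%) and in 2 of 5 (40%) each of channel and other metabolic promoters, but in 0 of 10 sterol promoters. The stretches of Gclm and Prdx1 are printed as examples whose element lies before the annotated start, that of Gclm at chr3:122245388-122245467 (plus strand) and that of Prdx1 at chr4:116685431-116685510 (plus), with the element in capitals.
Gclm: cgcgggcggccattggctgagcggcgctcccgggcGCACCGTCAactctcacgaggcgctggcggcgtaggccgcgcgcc
Prdx1: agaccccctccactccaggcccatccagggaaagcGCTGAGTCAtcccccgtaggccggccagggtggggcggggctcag
A list of 25 genes of the NRF2 type, written after the members were seen, had 12 called lower in unstimulated cells, 7 after LPS and 6 under GW3965, and none higher. It holds 6 members, the 5 above and Abcc4, which exports cyclic nucleotides and drugs. The rule chose these 6 as lower in each condition, so the counts of the list are not independent evidence of direction. Outside the rule, Gsr, the glutathione reductase, had a log2 fold change of -0.32 ± 0.07 and Nfe2l2, the gene of NRF2 itself, of -0.17 ± 0.05 in unstimulated cells and -0.45 ± 0.06 after LPS, each called lower. The values of Nqo1 and Slc7a11 were -0.30 ± 0.31 and -0.06 ± 0.21, which did not pass.

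The protocadherin gamma cluster gave 23 of the 121 symbols but few independent measurements. Protocadherins are cell adhesion proteins, and the transcripts of this cluster join variable first exons to shared constant exons at the 3′ end. They are 20 Pcdhg symbols and the predicted genes Gm37013, Gm38666 and Gm38667. At least 31.5% of the exon length of each of 21 symbols is shared with other genes (Gm38666 and Gm38667 were not matched to the annotation), and 22 of the symbols held nearly the same number of counts over all libraries, 4755 to 5016, with 7074 for Pcdhgc3. Their log2 fold changes were accordingly alike, from -0.71 to -0.52 in unstimulated cells. Pcdhgc3 was at 34.3, 39.2, 36.4 and 43.7 CPM with DMSO and 25.8, 20.4, 29.2 and 18.7 CPM with SGC0946, with mice 2 and 4 lowest, and at 33.8, 41.7 and 36.8 and 25.2, 18.5 and 30.2 CPM after LPS. In unstimulated cells Pcdhgc3 held 409, 591, 458 and 583 counts with DMSO and 297, 274, 324 and 263 with SGC0946. Gm37013, 1 of the 22 nearly alike, held 280, 400, 292 and 384 and 210, 218, 225 and 206. The counts of Pcdhgc3 beyond those of Gm37013 were thus fewer in each SGC0946 library than in any DMSO library. Which of the other transcripts differs cannot be told apart from these counts. Outside the cluster, 7 of the 97 members with annotated exons overlap other genes over at least 10% of their exon length, among them Htr2b, Tuba4a, Hmgcs1, Chn2, Tuba1a and Vps37b. The share was 37.3% for Tuba4a with Stk16 and 42.5% for Vps37b with Hip1r.

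Sort1 encodes sortilin, which sorts cargo between the Golgi, endosomes and secretion. It was at 85.1, 93.9, 82.9 and 102 CPM with DMSO and 40.1, 36.8, 36 and 45.2 CPM with SGC0946, at 71, 71.1 and 66.4 and 32.9, 27.6 and 32.4 CPM after LPS, and at 73.7, 80.1 and 73.3 and 34.2, 31.4 and 34.4 CPM under GW3965. The highest SGC0946 library lay below the lowest DMSO library of any condition, and the log2 fold changes were -1.20 ± 0.08, -1.17 ± 0.10 and -1.18 ± 0.09. Of the 5 sortilin family genes Sort1 and Sorl1 were tested, and Sorl1 did not pass (0.39 ± 0.13 in unstimulated cells). The remaining members of sorting and vesicle traffic were Gnptab, of lysosomal enzyme tagging (-0.55, -0.40 and -0.52), Vps37b of the ESCRT machinery (-0.42, -0.63 and -0.32), Rab3d of regulated exocytosis (-0.29, -0.30 and -0.28) and Tmed8 (-0.29, -0.26 and -0.27).

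Panx1 encodes a membrane channel that releases ATP. It was at 14, 16.3, 17.6 and 18.1 CPM with DMSO and 6.51, 5.96, 8.21 and 7.77 CPM with SGC0946, at 7.91, 8.62 and 8.58 and 5.85, 3.61 and 4.10 CPM after LPS, and at 14.7, 12.9 and 15.4 and 7.53, 5.95 and 6.74 CPM under GW3965. The arms were well separated without stimulus and under GW3965, and nearer to each other after LPS. Of 9 tested genes on the list of pannexins and the inflammasome, 1, 2 and 1 were called lower in unstimulated, LPS and GW3965 cells. Among the other channel and transporter genes, Slc7a6, an amino acid exchanger, had log2 fold changes of -0.87, -0.65 and -0.54, Abcc4 -0.32, -0.62 and -0.32, the pyrophosphate transporter gene Ank -0.47, -0.40 and -0.37, the zinc importer gene Slc39a6 -0.35, -0.43 and -0.26 and Mfsd6 -0.52, -0.53 and -0.58. Of the 6, 6, 5 and 4 were called lower in unstimulated, LPS and GW3965 cells.

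Signalling members numbered 11. Ptp4a3, a protein tyrosine phosphatase, was at 18.4, 15.2, 15.5 and 19 CPM with DMSO and 7.38, 7.82, 8.93 and 8.05 CPM with SGC0946. The kinase gene Stk26 was at 10.0 ± 1.02 and 5.31 ± 0.648 CPM. Both had tight groups. The exchange factors and GTPase activators Rasgrp3, Arhgef10l, Chn2, Rgl1, Sh3bp5 and Arhgap21 had unstimulated log2 fold changes from -0.62 to -0.33, and Pbk, Ctdspl and Map4k2 -0.66, -0.46 and -0.34. The group median was -0.52, -0.49 and -0.49 in unstimulated, LPS and GW3965 cells. The 7 cytoskeleton and matrix members included the actin severing protein gene Gsn (-0.34, -0.30 and -0.30), the formin gene Inf2 (-0.58, -0.46 and -0.61), the matrix gene Emilin2 (-0.36, -0.35 and -0.39), Kank2 (-0.46, -0.59 and -0.42) and 2 tubulin genes whose exons overlap those of other genes, Tuba4a (-0.60, -0.83 and -0.35) and Tuba1a (-0.43, -0.64 and -0.38).

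Nuclear members were Nup210 of the nuclear pore, at 7.04, 7.82, 7.88 and 9.30 CPM with DMSO and 3.91, 2.90, 4.15 and 2.71 CPM with SGC0946, the haematopoietic transcription factor gene Tal1, at 28.3 ± 1.51 and 19.8 ± 0.922 CPM, the deacetylase gene Hdac7 (-0.31, -1.13 and -0.47), Parp3 (-0.32, -0.37 and -0.28), Cenpq of the kinetochore (-0.40, -0.35 and -0.57) and Rpa1, which binds single-stranded DNA (-0.30, -0.29 and -0.26). Nup210 had its lowest values in mice 2 and 4. Uck2, which phosphorylates uridine and cytidine, was lowered most outside the granule group in unstimulated and LPS cells. It was at 9.98, 11.1, 8.75 and 11.2 CPM with DMSO and 3.21, 3.43, 3.52 and 3.85 CPM with SGC0946, with log2 fold changes of -1.54 ± 0.16, -1.62 ± 0.22 and -1.40 ± 0.18. The SGC0946 libraries were close to each other in unstimulated cells. The other metabolic members were Hk1, the hexokinase of the first step of glycolysis, at 136 ± 5.38 and 109 ± 7.18 CPM, Adk (-0.36, -0.45 and -0.38), the malic enzyme gene Me2 (-0.47, -0.42 and -0.28), the glycogen branching enzyme gene Gbe1 (-0.30, -0.28 and -0.31) and Nt5dc2 (-0.33, -0.47 and -0.39).

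Of the 17 members with other or unassigned roles, Fkbp5 and F7 had the largest differences in unstimulated cells. Fkbp5, a co-chaperone of the glucocorticoid receptor, was at 8.97, 9.94, 11.4 and 13.3 CPM with DMSO and 5.47, 4.10, 5.14 and 4.42 CPM with SGC0946, but at 13.1, 21.6 and 19.5 and 12.9, 11.7 and 12.6 CPM after LPS, where DMSO+LPS replicate 1 almost met the SGC0946 arm. F7, which encodes coagulation factor VII, was at 15.9, 13.3, 19.3 and 17.7 and 9.63, 5.88, 9.65 and 9.05 CPM, with SGC0946 replicate 2 lowest. The other 15 had unstimulated log2 fold changes from -0.45 (Fam107b) to -0.26 (Rcsd1). They include Tpst2, which adds sulfate to tyrosines, and Zdhhc18, a palmitoyltransferase, along with Tmem263, Phtf2, Mettl7a1, 1700025G04Rik, Cnst, Lhfpl2, Ttc7, Itprip, Dipk2a, 6430548M08Rik and Lancl2. The median of these 17 was -0.38, -0.48 and -0.36. On the remaining lists few genes were called. Of 10 tested genes of alternative activation, 2 were lower and 2 higher in unstimulated cells, Chil3 and Stab1 being the lower ones. Of 20 genes of hexose uptake and glycolysis, Hk1 was the 1 called lower, and 1 was higher. Over the 7 genes tested of the HOXA and progenitor list the median was -0.07 in unstimulated cells, and 1 was called higher under GW3965.

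The response to LPS was not used to choose the members, and they moved both ways in it. In DMSO cells, 34 of the 121 rose and 46 fell after LPS, and 41 did not pass the test. Of all 12013 genes, 35.4% rose and 38.7% fell. Set beside those shares, the counts over the 121 say nothing particular about the members. No protocadherin gamma symbol was called, so the same 34 and 46 came from the 98 members outside that cluster. Among those 98 the share of falls was above that of all genes, a difference that was not tested. In SGC0946 cells 37 rose and 44 fell, beside 35.8% and 38.8% of all genes. The median log2 fold change of the members was -0.07 in each arm, as was that of all genes, but without the protocadherin cluster that of the other 98 members was -0.19 in DMSO and -0.18 in SGC0946 cells. Unstimulated and LPS libraries also served the contrasts that chose the members, and 3 of the 4 unstimulated DMSO libraries are titled reanalyzed where no LPS library is. The split depends on scaling. TMM factors were 0.686 to 0.717 in LPS libraries and 1.14 to 1.19 in the others, and with library totals alone the median of all genes moved by -0.73 in DMSO cells and -0.74 in SGC0946 cells, so that in DMSO cells 15 members rose and 88 fell. Directions below are relative to the TMM scale.

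Among the rises were signalling and traffic genes. Sh3bp5, which regulates Rab GTPases, went from 85.7, 81.4, 88.6 and 93.4 CPM in unstimulated DMSO cells to 352, 373 and 384 CPM after LPS, a rise of 2.08 ± 0.06 (edgeR adjusted p = 2.14e-18). By the same test Rgl1, an exchange factor for Ral, rose by 2.35 ± 0.11 (edgeR adjusted p = 7.96e-15). Lancl2, Rcsd1, Vps37b, Tmed8 and Hk1 rose by 2.10, 2.05, 1.60, 1.40 and 1.31. With library totals alone each of these 7 still rose, by 0.58 to 1.62. No LPS library of any of them overlapped the unstimulated DMSO libraries.

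Falls came from members of several roles. Lhfpl2 went from 329, 308, 320.3 and 352 to 17.3, 14.8 and 18.5 CPM, a log2 change of -4.28 ± 0.11 (edgeR adjusted p = 6.73e-19). Rasgrp3, an exchange factor for Ras, went from 114, 113, 107 and 133 to 7.50, 7.03 and 7.88 CPM, a change of -3.97 ± 0.15. 6430548M08Rik, Arhgef10l, Dipk2a, Acsl3, Kank2 and Hmox1 changed by -3.58, -3.14, -2.59, -2.53, -1.55 and -1.27, each called lower. In all of these the SGC0946 arm fell too, and it stayed below DMSO, as the rule demands. After LPS, Lhfpl2 was at 11.1, 10.6 and 12.6 CPM with SGC0946.

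Sterol members moved both ways on this scale. Of the 15, 6 rose after LPS in DMSO cells and 5 fell, whereas with library totals alone 1 rose and 8 fell. Srebf2 went from 227, 223, 224 and 241 to 361, 365 and 366 CPM, a rise of 0.67 ± 0.09 (edgeR adjusted p = 7.8e-07), and Hmgcs1, Sc5d and Insig1 rose by 0.70, 0.58 and 0.49. Lss, Por, Stard4 and Mvd changed by -0.85, -0.81, -0.79 and -0.77, all called lower. With library totals alone the values were -0.06 for Srebf2, -0.03 for Hmgcs1, -0.15 for Sc5d and -0.24 for Insig1, and none of these 4 passed. Of the granule group, Lcn2 and Chil3 rose (with library totals alone 1.76 and -0.20, Chil3 not passing), Ltf and Padi4 fell and Ngp, S100a8 and S100a9 did not pass in DMSO cells. None of the 23 protocadherin symbols was called by edgeR, with 0 at an unadjusted p under 0.05, and all 23 were called lower with library totals alone.

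**Figure D4:**
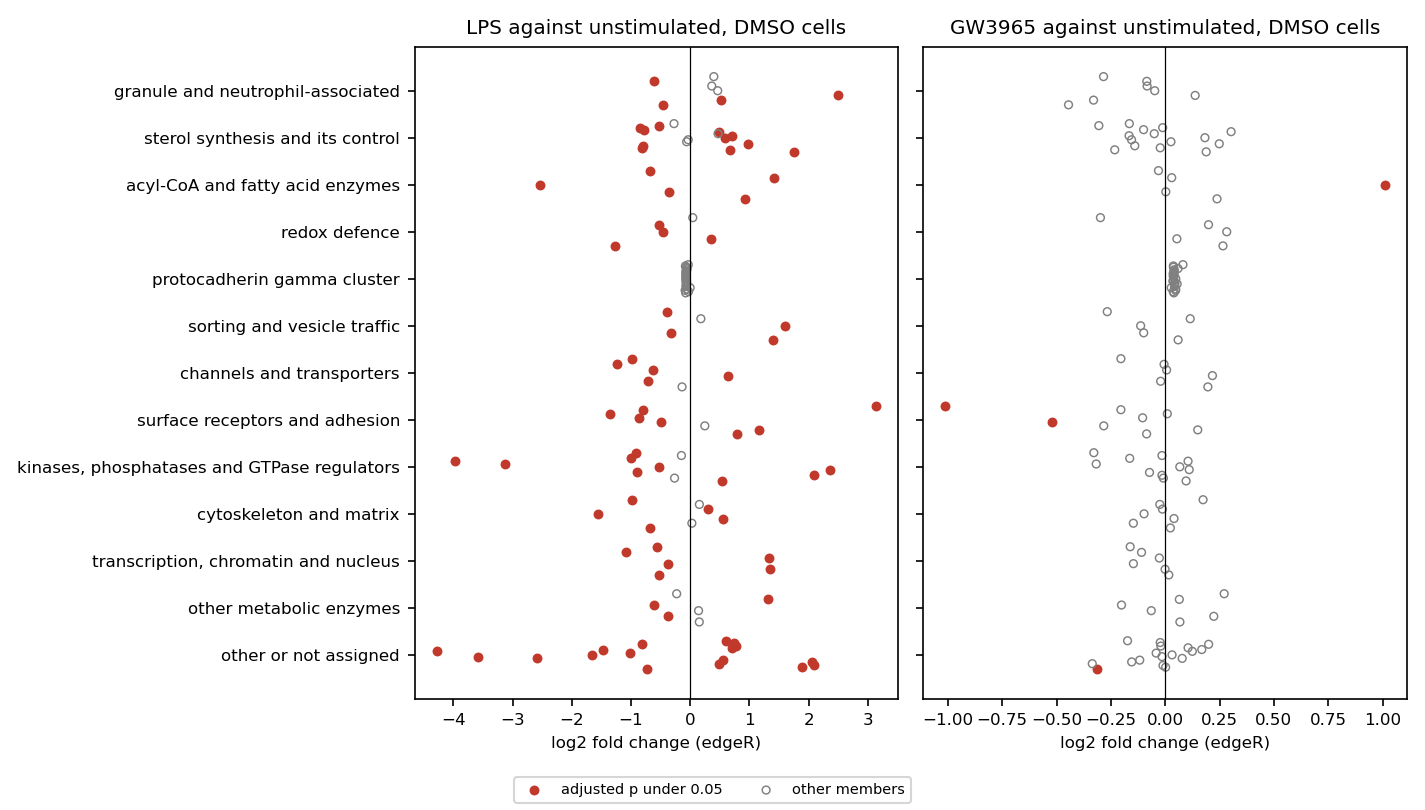
Log2 fold change of each member after LPS (left) and under GW3965 (right) against unstimulated cells of the DMSO arm, by role, with filled red points for an adjusted p under 0.05. LPS points spread in both directions, the lowest at -4.28, and 4 points are filled for GW3965.

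Under GW3965 in DMSO cells 1 of the 121 members rose, Acsl3, and 3 fell, among them Stab1 and Ttc7, beside 1.35% and 1.2% of all genes. Fitted with only the groups compared, 6 rose and 11 fell, and with the mouse as a block 3 rose. Acsl3 went from 61.6, 71.2, 69.8 and 71.6 to 126, 146 and 143 CPM, a rise of 1.01 ± 0.12 (edgeR adjusted p = 1.6e-05), and in SGC0946 cells from 49.6, 33.8, 51.3 and 34.4 to 105, 92.2 and 106 CPM. The GW3965 libraries lay above all unstimulated libraries in both arms. Stab1 changed by -0.52 ± 0.10 (edgeR adjusted p = 0.00384) and Ttc7 by -0.31 ± 0.06 (adjusted p = 0.00309). With the mouse as a block, 3 members rose in DMSO cells, Hmox1 (0.27, adjusted p = 0.0197) and Gclm (0.34, adjusted p = 0.0239) joining Acsl3, and Arhgef10l (-0.32, adjusted p = 0.0289) fell as well. Without DMSO+GW3965 replicate 1 the count of rises was 2, and without DMSO replicate 4 it was 3. In SGC0946 cells, 3 rose (Acsl3, Insig1 and Me2) and 5 fell (among them Ltf, Stab1, Ttc7 and Nt5dc2), beside 1.32% and 1.11% of all genes. These counts ranged over 1 to 9 and 1 to 5 when a library was left out, and both were 1 without SGC0946+GW3965 replicate 1 or 3 or without SGC0946 replicate 4. The 9 came without SGC0946+GW3965 replicate 2, and without that library or SGC0946 replicate 2 the count of falls was 3; the count of rises without the latter was 1.

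The rule set a limit on the inhibitor's effect in each condition, not on the difference between conditions. That difference was tested as an interaction. Of the 121 members, 1 differed between LPS and unstimulated cells, Lcn2, and it was the only gene of the 12013, a share of 0.00832%. Its effect was -3.55 ± 0.28 in unstimulated cells and -0.67 ± 0.16 after LPS, a difference of 2.89 ± 0.34 (edgeR adjusted p = 0.000395). Put as responses, Lcn2 rose by 2.49 ± 0.16 after LPS in DMSO cells and by 5.38 ± 0.25 in SGC0946 cells. With the mouse as a block the adjusted p was 0.000108. Without mice 2 and 4 the difference was no longer called (adjusted p = 0.0848, the highest over 24 alternatives, which ran from 6.21e-06), while its size stayed between 2.72 and 3.11 over those 24. The unstimulated SGC0946 level rests on 2 to 5 counts per library. No member was called more negative after LPS. At an unadjusted p under 0.05, 3 members were less and 4 more negative after LPS. For GW3965 against unstimulated cells, 0 members were called in either direction by edgeR, beside 0% of all genes, with 1 in each direction at an unadjusted p under 0.05, and DESeq2 and limma-voom gave 0 as well.

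The members lay on many chromosomes, with a few neighbours. Ngp (chr9:110419808-110423012) and Ltf (chr9:111019292-111042766) lie 596 kb apart, and S100a9 and S100a8 on chromosome 3, 22.6 kb apart. Padi4 and Arhgef10l lie 79.5 kb apart on chromosome 4, Uck2 and Mgst3 86.0 kb apart on chromosome 1, and Stab1 and Nt5dc2 overlap at their ends on chromosome 14. Positions are those of RefSeq on GRCm38.p6. Per length, the 98 members outside the protocadherin cluster had a median level of 15.5 RPKM in unstimulated DMSO cells, against 10.7 RPKM for the 10496 genes of 2 CPM or more. Their median gene span was 33.0 kb against 23.3 kb. Their promoters held a median of 26 CpG in 300 bases against 22. The middle ranges of all these measures overlapped widely, as 7.16 to 32.4 RPKM for the members and 4.47 to 24.8 RPKM for all. Other motifs searched were the E box CACGTG (12.2% of members, 10.7% of all) and the PU.1 site GAGGAAGT (4.88% and 3.47%).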

How the data were processed

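RNA of 20 libraries (6 groups, 4 mice) was sequenced as single-end reads. The authors deposited read counts and RPKM values per transcript in separate tables, with alignment by STAR 2.5.2b and SAMtools 1.3.1 to mm10 per the submitters' processing notes; the counting program and its use of strand were not stated in the labels or files. The deposited counts are whole numbers for 35745 transcripts. The 305 transcripts with no gene name (1.17% of counts) stayed out. For each of 24342 symbols the transcript of highest total count was kept, which left 57.3% of counts. The deposited RPKM values served only for levels per length.

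CPM and tests used edgeR 4.0.16 in R 4.3.3: genes passing filterByExpr with a count minimum of 10 (12013 genes), TMM factors on those genes, and the quasi-likelihood F test with all 20 libraries and 1 mean per group, with Benjamini-Hochberg adjustment over all genes and a threshold of 0.05. The SE is the log2 fold change over the square root of F. The common biological coefficient of variation was 8.87%. The test was checked on simulated data. The precision of low genes is set by counting, and intervals cover no more than the spread between these libraries. Alternatives included DESeq2 1.42.0, limma 3.58.1 with voom, other scalings and filters, leaving out each library and the mouse as a block. The deposited sample sheet gives replicates of 1 number the same mouse, so numbers pair the libraries. The main fit does not use that pairing. Across genes, deviations from group means in DMSO and SGC0946 libraries of 1 mouse correlated at 0.057 to 0.46.

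The members, the gene lists and the roles were chosen with earlier results of these data known. Roles and the NRF2-type list were written after the members were seen. Genes named were the 15 members of largest mean difference, the members on the pathway and marker lists, the 5 genes nearest the threshold on either side, up to 8 members per direction of smallest adjusted p in the responses of DMSO cells, and those called for an effect difference. Other genes named were chosen after their values were seen. Promoters came from RefSeq (GRCm38.p6, 82 of 98 members outside the protocadherin cluster) and exons from GENCODE M21. A few genes are counted with the members or beside them and are not reported here by name.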

Additional observations from a re-analysis of the deposited data

Results flagged for a closer look

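A gap test within groups of 4 libraries marked 3 of 98 groups over 49 genes, where chance marks about 1 in 20. Chil3 in SGC0946 replicate 4 was at 2.49 CPM, and the other SGC0946 libraries were at 1.48 to 1.64 CPM. F7 in SGC0946 replicate 2 was at 5.88 CPM, with the others at 9.05 to 9.65 CPM. Vps37b in SGC0946 replicate 4 was at 15.5 CPM, with the others at 16.5 to 16.6 CPM. All of these lay below every DMSO library, as the rule demands.

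The effect of SGC0946 on Lcn2 differed between LPS and unstimulated cells by 2.89 on the log2 scale in the test of that difference. Both arms reached 8.90 CPM or more after LPS, and unstimulated SGC0946 cells held 0.356 CPM or less.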

How the results depend on the processing

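Among the alternative values for named members, 1893 kept their direction and side of the threshold, 84 lost the call, 37 gained it and 0 changed direction. Most of these values are SGC0946 effects in the contrasts that chose the members. Their direction was largely fixed by the rule, so for them the 0 is no independent evidence. With the mouse as a block, 97 members were called lower under GW3965 (64 without it) and 3 rose under GW3965 in DMSO cells (1 without it), and no other count moved by over 1.5 times. Fitted with only the groups compared, the GW3965 counts were 36 lower by SGC0946, 6 higher and 11 lower by GW3965 in DMSO cells, and 1 higher and 0 lower in SGC0946 cells. Without mice 2 and 4, chosen after seeing the data, 41 members were lower by SGC0946 in unstimulated cells, 5 were higher by GW3965 in DMSO cells, 0 lower by GW3965 in SGC0946 cells, and 0 differed between LPS and unstimulated cells. With library totals alone, LPS responses were 15 higher and 88 lower in DMSO and 18 higher and 88 lower in SGC0946 cells. The rise under GW3965 in DMSO cells became 2 members with DESeq2 size factors, no filter on low counts, a count minimum of 30, DESeq2 or limma-voom, and the fall became 5 with DESeq2. In SGC0946 cells it was 5 higher with no filter and 3 lower with limma-voom.

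Leaving out each library in turn gave 72 to 115 members lower by SGC0946 in unstimulated cells, 49 to 83 after LPS and 38 to 75 under GW3965, 1 to 3 higher and 2 to 3 lower by GW3965 in DMSO cells, and 1 to 9 higher and 1 to 5 lower in SGC0946 cells. The rule itself found 95 to 149 genes that way, 51 with a difference of -0.5 or less, 266 with any difference below 0, 271 when libraries could overlap, 194 without mouse 1 (119 of the 121 among them) and 249 without mouse 3 (116 among them). With TMM factors from the whole gene table it found 139, all 121 among them. Most of the protocadherin gamma symbols, which share exons, are among the 51. Leaving out libraries makes the demand for no overlap easier to meet, which by itself can raise the count. The cause of these moves was not tested. Low counts limit the granule genes most, since SGC0946 libraries held 1 to 8 counts of Ngp under GW3965.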
